A study of Mus musculus with 14 samples.

Results

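Keratins are the intermediate filament proteins of epithelial cells. Type I (acidic) and type II (basic) keratins join in pairs, and a filament needs a partner from each type. Krt8 (type II) and Krt18 (type I) form the pair of simple, single-layered epithelia, where Krt7 and Krt19 are also found, while Krt5 (type II) pairs with Krt14 and Krt15 (type I) in the basal layer of stratified epithelia. Krt17 (type I) is known from skin appendages and wounded epidermis, and Krt80 is a type II keratin of many epithelia. The RNA of these 9 genes and the authors' chromatin scores over their gene bodies are described here, out of 55433 genes in the RNA table and 22470 gene bodies in the chromatin table. The 9 were chosen by symbol after RNA differences between these same libraries were known. Their differences are therefore given as a description, and no test of them is offered as support.

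Cells derived from a mouse tumor (strain C57BL/6, passages 6 to 8) were grown in DMEM with serum. They had received either a guide RNA against Nsd3, a histone H3 lysine 36 methyltransferase (label sgNSD3), or a control guide (label sgControl), and total RNA was measured in 3 libraries of each. The series of 14 samples also holds 4 samples for H3K36me2, 2 for H3K27me3 and 2 for IgG. The tumor type, whether a line is 1 clone, and whether the 3 libraries of a condition came from separate cultures are not given in the sources used here, so the spread between libraries may be technical. Recovered RNA counts were 20294828 to 21863833 per library. Nsd3 itself had 21990, 22010 and 21840 normalized counts in libraries labelled sgNSD3, against 14570, 14400 and 14670 in libraries labelled sgControl, which is higher in the libraries that carry the guide against it. Gene-level RNA does not show whether the protein was disrupted, so every direction below rests on the labels.

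Several defining markers of epithelial cells were at or near 0 in these cells, while several of mesenchymal cells were abundant. Epcam, an epithelial adhesion protein, and Esrp1, an epithelial splicing regulator, had 0 counts in all 6 libraries. Cdh1, which encodes E-cadherin, had 1.03 to 5.75 normalized counts in libraries labelled sgNSD3, against 1.91 to 5.08 in libraries labelled sgControl. Of the 10 epithelial markers, 3 were at 0 in every library (Epcam, Esrp1 and Ovol2) and 3 passed the filter of a mean of 8 normalized counts (Krt8, Krt18 and Esrp2, a relative of Esrp1 with 457.8 to 469.2 against 413.4 to 431.3). Together the 10 summed to 710.0 to 755.6 normalized counts in libraries labelled sgNSD3, against 758.8 to 790.6 in libraries labelled sgControl. Krt8 and Krt18 are themselves among the 9 keratins. Without them the other 8 summed to 466.1 to 483.9 with sgNSD3 and 423.9 to 449.6 with sgControl, so the lower sum of the 10 is that of the keratins counted again. All 16 mesenchymal markers passed that filter, Vim (vimentin, the intermediate filament protein of mesenchymal cells) with a mean of 51820 normalized counts in libraries labelled sgNSD3, against 51160 in libraries labelled sgControl. Others were low, such as Thy1 (means of 90.29 with sgNSD3 and 58.51 with sgControl) and Twist2 (86.13 and 98.91). The summed mesenchymal markers, mostly Col1a1, Fn1 and Col1a2, were 1264000 to 1272000 normalized counts with sgNSD3, against 1121000 to 1205000 with sgControl. Of the 16, 5 were called higher and 1 lower, beside 5.44% and 6.44% of all tested genes. Higher calls numbered 2 without sgNSD3 replicate 1, 3 without sgNSD3 replicate 2 or 3 or sgControl replicate 1 or 2, and 4 without sgControl replicate 3. Lower calls numbered 0 to 2 over all alternatives run. Under quantile normalization the log2 difference of Col1a1, a collagen gene among the 5, was 0.0 and its call was lost. That setting gives a gene that keeps its rank the same value in each library, so it can show no difference for such a gene. The call of Col1a1 was also lost without sgNSD3 replicate 1 or 2 (limma adjusted p = 0.0561 and 0.0549). The part of these markers in the keratin differences was not tested. In such bulk RNA, fewer cells that express a keratin and less of its RNA per cell cannot be told apart.

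The genes lie in the mouse keratin clusters (GRCm38.p6, the assembly of the mm10 build). Krt80 (101348315 to 101370162), Krt7 (101412403 to 101427806), Krt5 (101707069 to 101712905), Krt8 (101996711 to 102004342) and Krt18 (102028216 to 102032026) are on chromosome 15, so Krt18 is the type I gene that sits in the type II cluster, 23.9 kb from Krt8. Krt15 (100131759 to 100135949), Krt19 (100140810 to 100145926), Krt14 (100203162 to 100207510) and Krt17 (100256215 to 100261029) are on chromosome 11. RefSeq promoter windows (250 bases before to 50 after the annotated start, GRCm38.p6) were matched for 5 of the 9 genes: Krt7, Krt8, Krt18, Krt5 and Krt14. The windows of Krt7, Krt8 and Krt18 are shown because these neighbours on chromosome 15 stood higher (Krt7), overlapped (Krt8) and stood lower (Krt18) in the RNA described next. Capitals mark matches, on either strand, to the GC box GGGCGG, the TATA box TATAAA and the E-box CACCTG, a sequence that ZEB and SNAI repressors bind. The windows are chr15:101412153-101412452 (plus strand) for Krt7, chr15:102004293-102004592 (minus strand) for Krt8 and chr15:102027966-102028265 (plus strand) for Krt18, each written 5′ to 3′ along its gene.

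Krt7: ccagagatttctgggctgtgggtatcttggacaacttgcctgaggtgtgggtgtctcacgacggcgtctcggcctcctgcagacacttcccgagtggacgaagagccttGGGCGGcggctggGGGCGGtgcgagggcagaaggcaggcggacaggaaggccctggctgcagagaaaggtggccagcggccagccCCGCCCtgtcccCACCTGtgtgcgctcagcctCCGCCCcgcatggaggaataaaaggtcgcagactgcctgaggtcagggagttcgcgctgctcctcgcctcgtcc

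Krt8: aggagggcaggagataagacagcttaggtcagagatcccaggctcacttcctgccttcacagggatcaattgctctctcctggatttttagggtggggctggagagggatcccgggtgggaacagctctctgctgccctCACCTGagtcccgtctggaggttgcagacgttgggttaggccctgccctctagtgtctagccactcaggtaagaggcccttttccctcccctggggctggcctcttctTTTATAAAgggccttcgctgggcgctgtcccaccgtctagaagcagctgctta

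Krt18: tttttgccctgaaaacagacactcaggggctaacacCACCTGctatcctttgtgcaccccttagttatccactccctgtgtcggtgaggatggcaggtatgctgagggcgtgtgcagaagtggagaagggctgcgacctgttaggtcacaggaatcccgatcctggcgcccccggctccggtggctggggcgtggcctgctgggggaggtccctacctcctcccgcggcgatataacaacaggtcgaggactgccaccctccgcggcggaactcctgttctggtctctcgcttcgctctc

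The Krt7 window held 4 GC boxes, and the other windows had none. At least 1 GC box occurs in 35.7% of the 32851 RefSeq promoter windows of the same length. The Krt8 window had overlapping TATAAA matches on both strands at the annotated start (the TATA box occurs in 13.6% of windows). An E-box was found in 4 of the 5 windows, all but that of Krt14, against 20.2% of all windows. None of the 5 held the AP-1 motif TGANTCA, which 7.81% of windows hold. The Krt14 window begins at a start inside the gene body rather than at the outer end of the gene. These are matches of letters and show no binding.

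Of the 9 genes, 7 passed the filter. The 4 type I keratins among them (Krt18, Krt19, Krt14 and Krt15) stood lower in libraries labelled sgNSD3, and the type II keratins Krt7 and Krt80 stood higher. Krt8 overlapped between the conditions, and Krt5 and Krt17 were at or near 0. Counts are not divided by transcript length, which was not used here, so levels of different keratins are not ranked against each other.

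Krt19, the type I keratin without a tail domain that is found in simple and ductal epithelia, had 2706, 2650 and 2673 normalized counts in libraries labelled sgNSD3 (replicates 1, 2 and 3), against 4226, 3797 and 3708 in libraries labelled sgControl. All libraries labelled sgNSD3 lay below all labelled sgControl. It averaged 2676 ± 27.8 normalized counts with sgNSD3 and 3911 ± 277 with sgControl (SD, n = 3 each), 1.46-fold lower with sgNSD3, and the log2 difference of normalized count + 1 was -0.54 ± 0.04 (SE). Krt18, the type I partner of Krt8, had 218.1, 240.7 and 243.4 normalized counts in libraries labelled sgNSD3, against 305.0, 294.7 and 314.6 in libraries labelled sgControl. Its conditions did not overlap, with means of 234.0 ± 13.9 and 304.8 ± 9.94 (SD, n = 3 each) and a log2 difference of -0.38 ± 0.078 (SE), 1.3-fold lower.

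Krt8, the type II partner of Krt18, had 25.84, 38.35 and 24.44 normalized counts in libraries labelled sgNSD3, against 31.34, 40.19 and 26.39 in libraries labelled sgControl. Replicate 2 was the highest library in each condition, and the conditions overlapped. The log2 difference was -0.15 ± 0.23 (SE), so a difference of the size seen for Krt18 was not detectable at this depth (25 to 42 recovered counts per library). Near-identical pseudogene copies could take or give reads. The listed Krt8-ps had 0 counts in 5 libraries and 0.978 normalized counts in sgNSD3 replicate 3. How reads that fit several copies were counted is unstated, and whether Krt8 lost reads to them was not tested. Krt7, the type II keratin of glandular and ductal epithelia, had 278.0, 284.8 and 265.9 normalized counts in libraries labelled sgNSD3, against 237.1, 246.9 and 207.0 in libraries labelled sgControl. The conditions did not overlap, though the gap between the nearest libraries was narrower than the range within sgControl. The means were 276.2 ± 9.56 and 230.3 ± 20.8 (SD, n = 3 each), 1.2-fold higher, with a log2 difference of 0.26 ± 0.084 (SE).

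Krt80 had 225.3, 208.1 and 224.8 normalized counts in libraries labelled sgNSD3, against 135.8, 147.4 and 161.4 in libraries labelled sgControl. The conditions did not overlap, and Krt80 was 1.48-fold higher with sgNSD3, the larger of the 2 folds above 1. Its means were 219.4 ± 9.81 and 148.2 ± 12.8 (SD, n = 3 each), and the log2 difference was 0.57 ± 0.096 (SE).

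**Figure D1:**
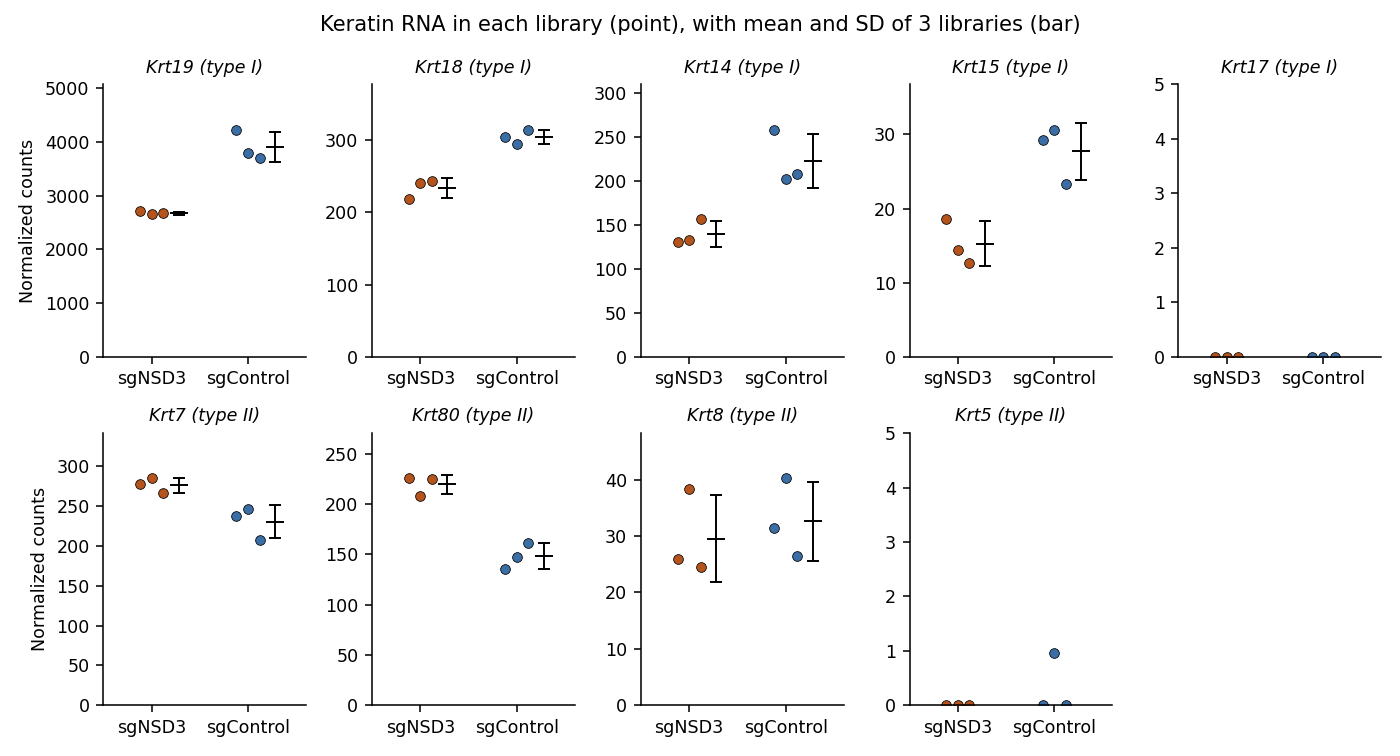
Normalized counts (vertical axis, from 0, with its own scale per gene) of the 9 keratins in the 3 libraries labelled sgNSD3 (left) and the 3 labelled sgControl (right). Points are libraries and bars the mean with SD, which are left out for Krt17 and Krt5. Krt19, Krt18, Krt14 and Krt15 sit lower in libraries labelled sgNSD3 and Krt7 and Krt80 higher, while Krt8 overlaps.

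Of the basal keratins, Krt14 and Krt15 were detected in every library. Krt14, the type I keratin of basal keratinocytes, had 130.2, 132.3 and 156.4 normalized counts in libraries labelled sgNSD3, against 258.0, 201.9 and 208.1 in libraries labelled sgControl, with no overlap. Its means were 139.6 ± 14.6 and 222.7 ± 30.8 (SD, n = 3 each), 1.59-fold lower, and its log2 difference -0.67 ± 0.11 (SE). Krt15, a type I keratin of basal and hair follicle stem cells, had 18.6, 14.38 and 12.71 normalized counts in libraries labelled sgNSD3, against 29.25, 30.62 and 23.34 in libraries labelled sgControl. These also did not overlap, but each library rests on 13 to 32 recovered counts, and the 95% exact Poisson intervals, which cover counting error only, overlapped between conditions (the upper bound was 29.4 in sgNSD3 replicate 1, and the lower bound 14.8 in sgControl replicate 3). Krt15 had the largest fold of the 7, 1.82-fold lower, and the largest error, with means of 15.23 ± 3.04 and 27.74 ± 3.87 (SD, n = 3 each) and a log2 difference of -0.83 ± 0.26 (SE).

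Krt5, the type II partner of Krt14, had 0 recovered counts in all libraries labelled sgNSD3 and 1 in total in those labelled sgControl. Krt17 had 0 in all 6 libraries. A count of 0 allows up to 3 counts, which is 2.87 to 3.13 normalized counts per library. Krt14, Krt16 and Krt17 resemble each other closely in sequence, and how reads that fit several copies were counted is unstated, so the split between them is uncertain. Krt16 and the Krt5 relative Krt6a had means of at most 0.687 normalized counts in either condition.

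In the fit across all 18263 tested genes (limma, adjusted p threshold 0.05), 4 of the 7 tested keratins were called lower (Krt19, Krt18, Krt14, Krt15), where 6.44% of all genes were, and 2 higher (Krt80, Krt7), where 5.44% were. The conditions did not overlap, in either direction, for 6 of the 7, against 28.5% of tested genes. Since the genes were chosen with this contrast known, nothing is read from these shares. The median log2 difference was -0.38 over the 7 and 0.0007 over all tested genes. The call of Krt7 was lost without sgNSD3 replicate 1, 2 or 3 or sgControl replicate 3 (limma adjusted p from 0.0731 to 0.174) and also with no filter on low genes (0.0588) and with a replicate block by column number (0.0555), and that of Krt15 without sgNSD3 replicate 2 or 3 or sgControl replicate 1 or 2 (0.0756 to 0.134) and with no filter (0.0624). The 994 genes called higher and 1176 called lower over the whole table became 645 and 707, 641 and 727, and 658 and 774 without sgNSD3 replicate 1, 2 and 3. Under upper quartile scaling the same split was 1208 higher and 921 lower, with the keratin calls as before.

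**Figure D2:**
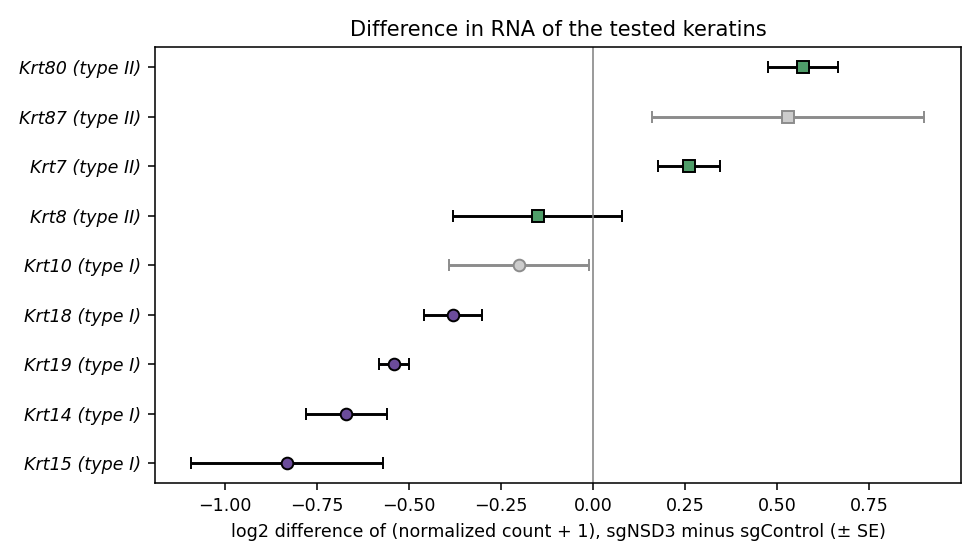
Log2 difference of (normalized count + 1), sgNSD3 minus sgControl (horizontal axis, bars SE), for the 7 tested keratins described here (coloured, circles type I and squares type II) and the 2 other keratins that passed the filter (grey). Type I members run from -0.83 for Krt15 to -0.38 for Krt18, and type II members from -0.15 for Krt8 to 0.57 for Krt80.

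Within each library, the balance of type I to type II counts was lower with sgNSD3. This ratio does not depend on how libraries are scaled to each other, and it uses the same values as above. The type I members summed to 5.81, 5.72 and 5.99 times the type II members in libraries labelled sgNSD3, against 11.9, 9.93 and 10.8 times in libraries labelled sgControl. Without Krt19, which holds most of these counts, the ratio was 0.693, 0.729 and 0.801 against 1.47, 1.21 and 1.38. Since counts are not divided by transcript length, only the difference in ratio between conditions is described. Whether a ratio lies above or below 1 is not read. All 54 keratin symbols of the table together took 175, 175 and 176 CPM of the recovered counts in libraries labelled sgNSD3, against 248, 233 and 229 in libraries labelled sgControl. Krt19 took 73.6%, 72.4% and 72.2% of keratin counts in libraries labelled sgNSD3, against 79.5%, 78.4% and 78.4% in libraries labelled sgControl. The 95% exact binomial intervals, again of counting error only, ran from 70.7% to 75.1% in libraries labelled sgNSD3 and from 77.2% to 80.6% in those labelled sgControl.

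**Figure D3:**
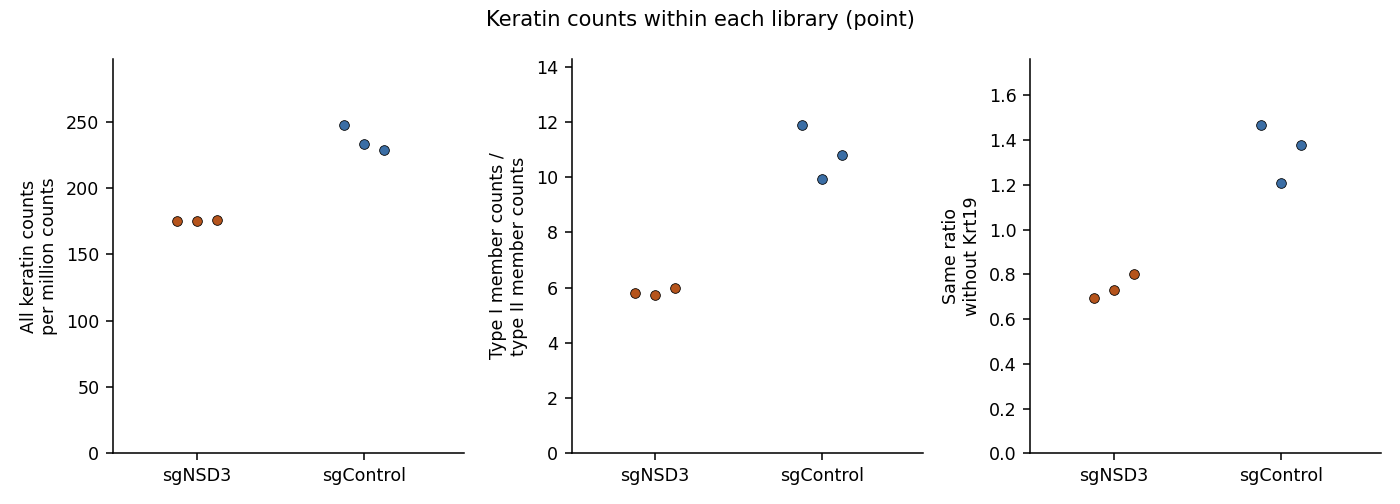
Keratin counts within each library (points), labelled sgNSD3 left and sgControl right: all keratin counts in CPM, the ratio of type I to type II member counts, and the same ratio without Krt19. Every axis starts at 0. The ratio lies at 5.72 to 5.99 with sgNSD3 and at 9.93 to 11.9 with sgControl.

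Other keratins were scarce. Of the 45 other keratin symbols, 22 had 0 counts in every library, 21 were detected below the filter and 2 were tested. Krt10, the type I keratin of suprabasal epidermis, had 34.1, 46.03 and 51.81 normalized counts in libraries labelled sgNSD3, against 52.23, 45.93 and 51.76 in libraries labelled sgControl, which overlapped (log2 difference -0.2 ± 0.19, SE). Krt87, a type II hair keratin gene 3.7 kb from Krt7, had 10.33, 13.42 and 14.66 against 11.49, 12.44 and 4.06, also overlapping. Neither was called (limma adjusted p = 0.582 and 0.448). Krt78 lies 0.1 kb from Krt8 and had at most 1 count in a library.

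The genes that border the clusters showed 1 call in each direction. Of 34 protein-coding genes of the RNA table within 100 kb of any of the 9, 10 were no keratins, and 7 of these were tested. Among these 7, 1 was called higher and 1 lower, where 5.44% and 6.44% of all tested genes were. With only 7 genes tested, nothing is read from these shares. Hap1, which encodes a huntingtin-associated protein, fell, with 103.3, 93.97 and 95.8 normalized counts in libraries labelled sgNSD3, against 152.5, 148.3 and 145.1 in libraries labelled sgControl (limma adjusted p = 0.000556). It lies 86.3 kb from Krt17. Nr4a1, an immediate early nuclear receptor 73.5 kb from Krt80, rose, with 6822, 6711 and 6990 against 5707, 5317 and 5287 normalized counts in the same order (limma adjusted p = 5.18e-08). Eif4b, a translation initiation factor 41.7 kb from Krt18, had means of 8080 ± 59.5 and 8138 ± 263 normalized counts (SD, n = 3 each), and Eif1, Tns2, Spryd3 and Atg101 were not called either.

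Genes that anchor keratin filaments were called in both directions. Of 15 desmosome and keratin linker genes, 8 were tested, 1 rose and 1 fell, and their median log2 difference was 0.13. Here and in the lists below, the shares of all tested genes were 5.44% called higher and 6.44% lower. With so few genes tested per list, nothing is read from 1 call in either direction. Dsp, desmoplakin, which ties keratin filaments to the desmosome, rose, with 26.87, 20.14 and 21.51 normalized counts in libraries labelled sgNSD3, against 9.401, 11.48 and 12.18 in libraries labelled sgControl (log2 difference 0.98 ± 0.28, SE, limma adjusted p = 0.0182). Pkp2, a desmosomal plakophilin, fell 1.15-fold, to 446.8 ± 10.1 normalized counts with sgNSD3, against 513.9 ± 6.43 with sgControl (SD, 3 libraries each, limma adjusted p = 0.0258). The desmosomal cadherin genes Dsg1a, Dsg2, Dsg3 and Dsc1 had 0 counts throughout. The call of Dsp was lost without sgNSD3 replicate 1 or sgControl replicate 1 (adjusted p = 0.102 and 0.0606), and that of Pkp2 when any 1 library labelled sgNSD3 or sgControl replicate 2 was left out (0.0518 to 0.109).

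Of 9 hemidesmosome genes, 8 were tested, 1 rose and 2 fell (median log2 difference 0.09), where 5.44% and 6.44% of all tested genes were called. Itga6, an integrin subunit of hemidesmosomes, fell 1.23-fold, to 404.6 ± 9.39 with sgNSD3 against 497.2 ± 13.5 with sgControl (SD, 3 libraries each, limma adjusted p = 0.00172). The other integrin subunit of the list, Itgb4, was not called (limma adjusted p = 0.194). Its means were higher with sgNSD3, at 173.6 ± 4.79 against 150.4 ± 5.44 with sgControl (SD, 3 libraries each), without overlap. The tetraspanin Cd151 fell 1.14-fold (limma adjusted p = 3.29e-05). Dst, dystonin, whose epithelial form links keratins to the hemidesmosome, rose 1.06-fold (adjusted p = 0.0313), a call lost when any 1 library labelled sgNSD3 or sgControl replicate 2 was left out (0.079 to 0.192) or with a replicate block by column number (0.0638). Plec, the plectin linker, was not called, at means of 28430 ± 450 and 26790 ± 1820 normalized counts (SD, n = 3 each).

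Among 10 genes that bind, phosphorylate or fold keratins, all tested, 4 were called lower and 1 higher (median log2 difference -0.09). Of all tested genes 6.44% were called lower and 5.44% higher. Fam83h, which recruits casein kinase 1 to keratin filaments, fell to 529.1, 539.8 and 566.0 normalized counts in libraries labelled sgNSD3, against 683.1, 626.8 and 630.3 in libraries labelled sgControl (limma adjusted p = 0.00464). The 14-3-3 genes Ywhah and Ywhae fell 1.17-fold and 1.11-fold (adjusted p = 0.000125 and 0.000849), and the chaperone Hspa8 1.11-fold (0.000479, but 0.226 under quantile normalization). Csnk1a1, a casein kinase 1 named after its values were seen, as the only gene of the list called higher, was 1.07-fold higher (adjusted p = 0.0208). Its call was lost when any 1 of the libraries labelled sgNSD3 was left out (0.0717 to 0.127).

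Epithelial transcription factors were also called in both directions. Of 18, 10 were tested, 2 rose and 1 fell (median log2 difference -0.02), where 5.44% and 6.44% of all tested genes were called. Klf4, a factor of epidermal differentiation, rose 1.17-fold, with 4038, 4063 and 4061 normalized counts in libraries labelled sgNSD3, against 3520, 3395 and 3495 in libraries labelled sgControl (limma adjusted p = 1.12e-05). Zfp750, another regulator of epidermal differentiation, rose to 28.4 ± 2.19 normalized counts with sgNSD3, against 16.09 ± 2.77 with sgControl (SD, 3 libraries each, limma adjusted p = 0.0333). That call was lost when any 1 library other than sgControl replicate 3 was left out (0.0607 to 0.111), with no filter (0.0681) and under quantile normalization (0.0506). Foxa2, a factor of endodermal epithelia, fell 1.26-fold (adjusted p = 0.00199). Trp63, the master regulator of basal epithelia, was below the filter, at 2.93 to 4.79 normalized counts with sgNSD3 and 0 to 2.09 with sgControl.

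None of the 8 tested of 20 epithelial junction and splicing genes, of the 3 tested of 17 cornified envelope genes or of the 2 other keratins was called. Cdh3, P-cadherin, had means of 5763 ± 120 and 5768 ± 42.4 normalized counts (SD, n = 3 each). Of 15 other intermediate filament genes, 8 were tested and 1 rose: Nes, nestin, which had 289.6 ± 20.5 normalized counts with sgNSD3 against 235.0 ± 36.2 with sgControl (SD, 3 libraries each, limma adjusted p = 0.0363), a call lost without sgNSD3 replicate 1 or 3 or sgControl replicate 2 or 3 (0.063 to 0.235). Counts of blood and endothelial markers stayed low beside these: the 8 blood markers summed to 187.1 to 197.5 normalized counts in libraries labelled sgNSD3 and 163.4 to 170.3 in those labelled sgControl, mostly Csf1r, with Cd3e, Adgre1 and Hba-a1 at 0. The 5 endothelial markers summed to 197.4 to 238.8 against 122.8 to 147.4, mostly Kdr, the VEGF receptor, which rose (190.1 ± 16.8 against 114.6 ± 11.1, SD, 3 libraries each, limma adjusted p = 4.68e-05). The 6 muscle markers summed to 11.73 to 19.64 against 14.35 to 20.89.

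**Figure D4:**
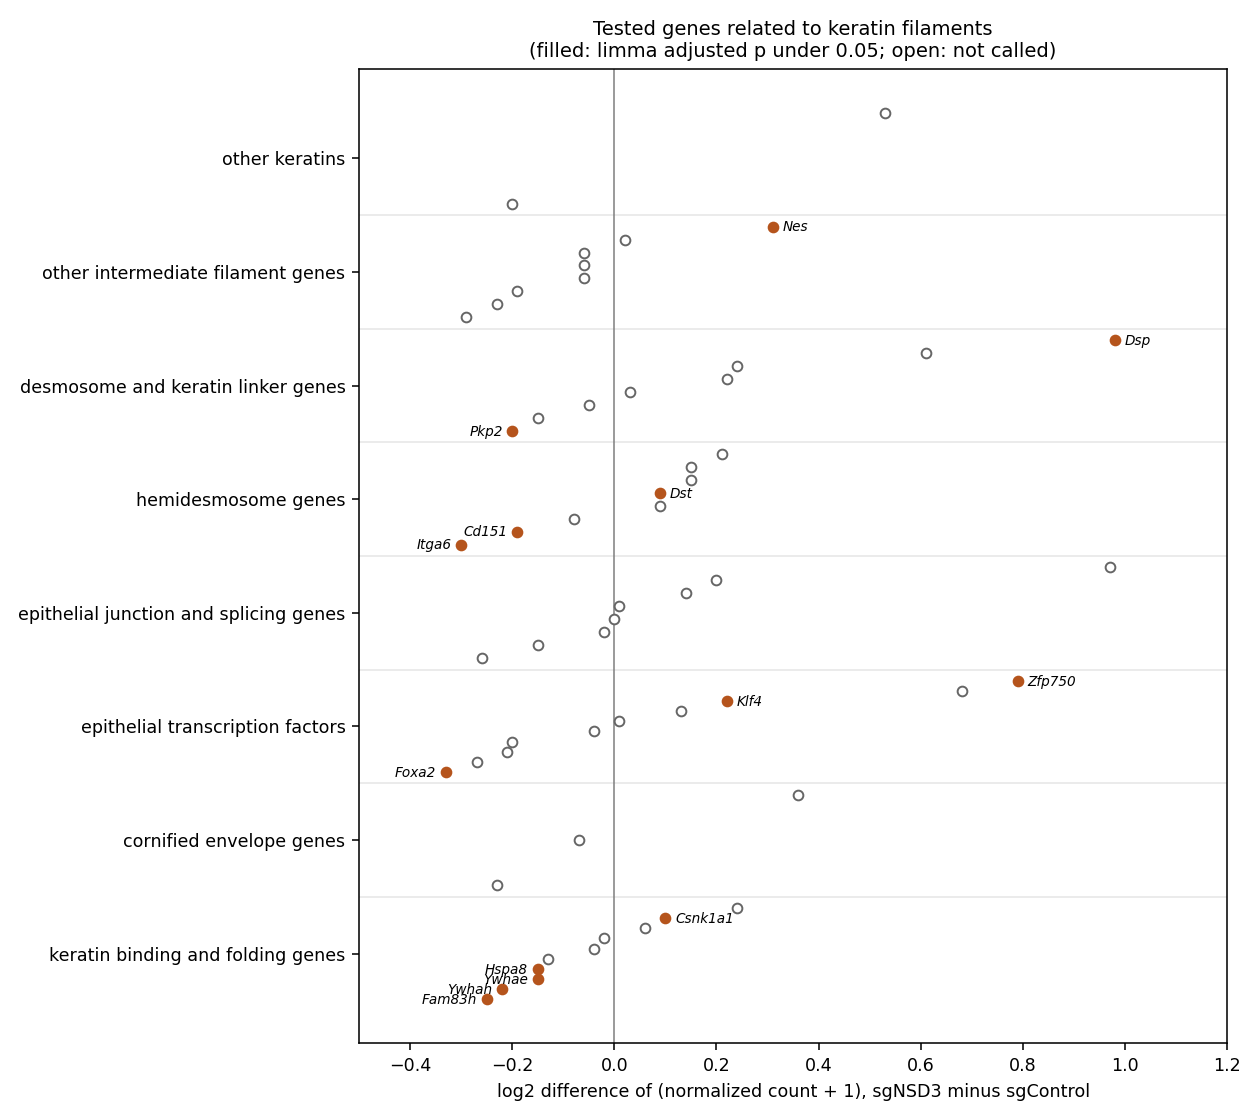
Log2 difference of (normalized count + 1), sgNSD3 minus sgControl (horizontal axis), for each tested gene of the lists related to keratin filaments (rows). Filled points were called (limma adjusted p under 0.05) and are named, and open points were not. Called genes lie on both sides of 0 in 4 of the 8 lists, from -0.33 for Foxa2 to 0.98 for Dsp.

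For each keratin with a mean of at least 32 normalized counts, the genes whose log2(normalized count + 1) ran most like it over the 6 libraries are given as a description. Because the libraries share the split into 2 conditions, high correlations were common: between 226 (Krt7) and 755 (Krt19) genes reached a Pearson r of 0.9 with a given keratin. Krt19 was most like Ccdc85c, Sv2a and Tmem108 (r = 0.9979, 0.9975 and 0.997). Krt18 was most like Sept5, Tecr and Chmp4b (0.9972, 0.9952 and 0.9951). Krt14 was most like Fam83h, Utp11 and Creb3l2 (0.9985, 0.9952 and 0.9944). On the opposite side, Krt80 was most like Kmt5b, Stag2 and Arhgef26 (0.9988, 0.9984 and 0.9974), and Krt7 was most like Dnajb1, N4bp2 and Nat9 (0.9877, 0.9872 and 0.9864). Krt8, whose mean was below 32 normalized counts, rests on 25 to 42 recovered counts per library. Its r with its partner Krt18 was 0.23 over the same libraries, and Krt19 had 0.93 with Krt18. Counting error weighs on the first value and the split into 2 conditions on the second, so they are not read against each other.

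For chromatin, the authors' deposited table holds signed scores over gene bodies, with 1 column for H3K27me3, a mark of Polycomb repression, and 2 columns for H3K36me2, the mark that Nsd3 can place. The libraries behind each column are unnamed, so no direction between conditions is drawn, and no spread can be given. In the authors' deposited table, 8 and 9 of the 9 keratins were above 0 in the H3K36me2 columns of samples 1 and 2, where 89.4% and 92.4% of all gene bodies were. In H3K27me3, 3 of the 9 were above 0, where 31.5% of all were.

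Krt8 had H3K36me2 scores of 0.235 and 0.15 in the authors' deposited table, at percentiles 98.6 and 62.6 of all gene bodies, and an H3K27me3 score of -0.137 (percentile 6.14). Its neighbour Krt18 had 0.141 and 0.32 (percentiles 86.4 and 96.9) and -0.032 for H3K27me3 in that table. Both of the pair thus stood above the median gene body in both H3K36me2 columns, but each was near the top in a different column. The authors' deposited table gives Krt19 0.175 and 0.198 for H3K36me2 and -0.0915 for H3K27me3, and Krt80 0.192 and 0.198 for H3K36me2. Krt80 had the highest H3K27me3 score of the 9 there, 0.0745 (percentile 87.2). How these scores relate to the RNA differences was not tested.

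Krt14 was the lowest of the 9 in the first H3K36me2 column of the authors' deposited table, at -0.013 (percentile 5.12), with 0.0792 in the second. Krt17, with 0 RNA counts, was lowest in the second, at 0.0116 (percentile 9.29), with 0.0773 in the first. Krt5 had 0.0263 and 0.134, Krt7 0.0647 and 0.0664, and Krt15 0.154 and 0.142 in that table. For H3K27me3 the authors' deposited table puts 5 of the 9 (Krt7, Krt8, Krt14, Krt17 and Krt19) below the 15th percentile, while Krt5 and Krt15 stood at 0.0133 and 0.00898. In the authors' deposited table the 9 had a median H3K36me2 score of 0.141 in sample 1 and 0.142 in sample 2, against 0.0901 and 0.145 for the 42 other keratin gene bodies. Their median H3K27me3 score there was -0.0915, against -0.0451 for the other keratins.

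**Figure D5:**
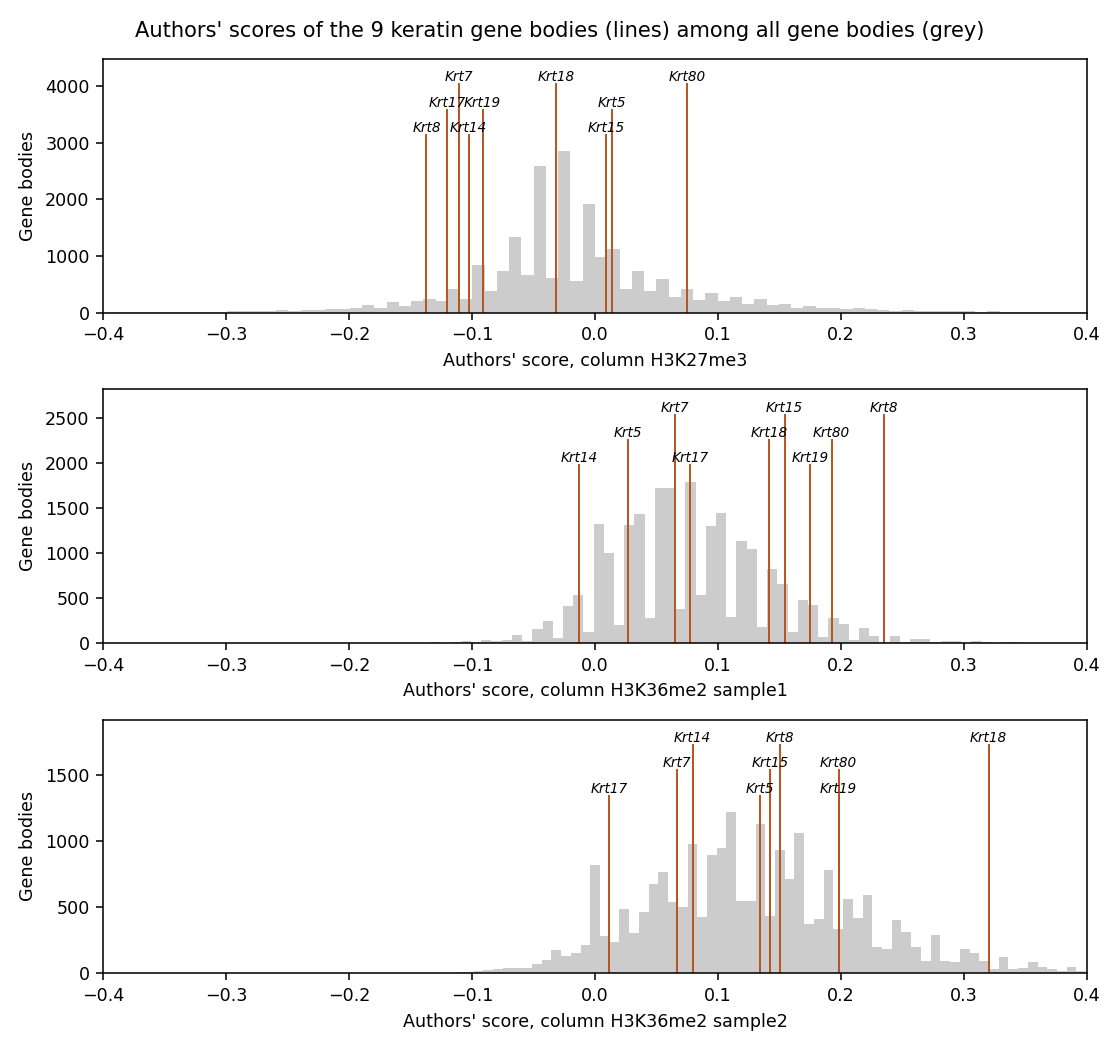
The authors' scores (horizontal axis, unit not stated) of the 9 keratin gene bodies (lines) over the number of gene bodies at each score (grey, vertical axis), in 3 panels for the columns H3K27me3 and H3K36me2 of samples 1 and 2. Scores outside the plotted range are not drawn. Krt8 stands far right for sample 1 (0.235) and Krt18 for sample 2 (0.32).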

How the data were processed

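The submitters' processing notes name the mm10 build and the tools HISAT2, featureCounts and DESeq2, without versions or settings. The RNA values are deposited by the authors on a log2 scale, and a gene without reads sits at 8.45 in each library, as on a variance-stabilised scale. The closed form of that transform was inverted to normalized counts. Divided by the smallest value above 0 of a library, 100% of values lay within 0.05 of a whole number, and these are called recovered counts. For chromatin the authors deposited a signed score for each gene body in 3 columns, none of which names a single library. The planned test between conditions could therefore not be run on them. There were 0 further value columns.

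The RNA comparison used limma 3.58.1 (R 4.3.3; lmFit and trended eBayes) on the deposited log2 values of 3 sgNSD3 and 3 sgControl libraries, for the 18263 of 55433 genes with a mean of at least 8 normalized counts, with p-values adjusted by Benjamini-Hochberg and called under 0.05. A fold is the ratio of the conditions' mean normalized counts. Log2 differences and their SE were fitted by limma to log2(normalized count + 1). Changes of low genes are somewhat understated on it, and far more so on the deposited scale that gave the calls. Krt15, for example, was at -0.83 on the first scale and at -0.1 on the deposited one. The fit was also run on simulated counts with a spread shared by all genes. Only genes with a mean of at least 32 normalized counts were changed in them. It recovered 71.8% of genes changed 1.25-fold and 92.4% of those changed 1.5-fold, and 6.91% of its calls were unchanged genes. The simulation therefore does not cover genes as low as Krt8 and Krt15. Replicate numbers follow the sample titles; for sgNSD3 replicates 1, 2 and 3 the deposited columns bear the numbers 3, 1 and 2. Counts limit precision: recovered totals were 20294828 to 21863833 per library.

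The 9 genes, the lists of related genes and the naming rule were chosen with earlier results of these data known. The rule took the 9 genes, up to 4 called genes per list with the largest change, for each keratin with a mean of at least 32 normalized counts the 3 genes most correlated with it (predicted symbols left out), and protein-coding neighbours within 100 kb. Mesenchymal markers are given as counts and sums, and genes named beside the rule for comparison (among them Plec, Cdh3 and Esrp2) were chosen after their values were seen. Motifs were searched on both strands of RefSeq promoter windows. Alternatives were 2 pseudocounts, 2 filters, quantile and upper quartile scaling, limma voom on the recovered counts, a replicate block by title or column number, and leaving out each library.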

Additional observations from a re-analysis of the deposited data

How the results depend on the processing

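Of the 7 tested keratins, 6 kept the sign of their difference under each alternative run on them. Krt8, called in none, was at -0.022 on the deposited log2 scale and at 0.003 without sgControl replicate 2. Krt8 and Krt15 have no value under the filter of a mean of at least 32 normalized counts. Of 103 alternative values 92 kept their side of the threshold. The 11 lost calls were all of Krt7 or Krt15. Without a filter on low genes, which tests more genes, 1 keratin was called higher (Krt80) in place of 2. With the replicate block by column number it was likewise 1, and with the block by title number 2 (1119 genes higher and 1333 lower overall; 919 and 1086 by column number). Same-numbered libraries correlated at -0.0134 to 0.046 by title and -0.0663 to -0.00654 by column in their deviations from the condition means. No shared deviation by number was thus seen. This check cannot show whether same-numbered libraries were grown or prepared together. Leaving out 1 library at a time gave 641 to 993 genes higher and 707 to 1164 lower over the table, 1 to 2 keratins higher and 3 to 4 lower, and 1 to 6 genes of the related lists higher and 7 to 8 lower, against 6 and 8. Of the genes named from the lists and neighbours, 279 of 313 alternative values kept their side of the threshold. Low counts limit the precision of Krt8, Krt15, Krt87, Dsp and Zfp750.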
